A study of Homo sapiens with 16 samples.

Results

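The genes examined were 10 genes of polyamine metabolism (ODC1, AMD1, SRM, SMS, OAZ1, OAZ2, AZIN1, SAT1, PAOX and MTAP). They were chosen by symbol for their place in the pathway, by a rule that has no threshold on a measured value. All 10 were found among the 60719 gene identifiers of the count tables, and 9 of them were detected.

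Polyamines (putrescine, spermidine and spermine) are small cations that bind RNA and DNA, and growing cells need them for translation and division. Ornithine decarboxylase, the product of ODC1, makes putrescine from ornithine, and the aminopropyl groups that turn putrescine into spermidine and spermine come from S-adenosylmethionine after its decarboxylation by the product of AMD1. Antizymes send ornithine decarboxylase to the proteasome, antizyme inhibitors shield it, and acetylation by the product of SAT1 opens the way to breakdown and export. ODC1 is a long-known direct target of the transcription factor Myc.

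RNA was sequenced in 16 libraries of MDA-MB-231, an established human line of triple-negative breast cancer with wild-type TXNIP (parental 231), and of its derivative 231:TKO, in which TXNIP was knocked out with CRISPR/Cas9 and which was grown out from single cells. Untreated parental 231 and 231:TKO had 2 replicates each. Both populations were also treated for 48 hours with a non-targeting siRNA (siNT) or an siRNA against Myc (siMyc), with 3 replicates in each of the 4 groups. The comparisons ask how these genes differ after TXNIP loss and after Myc depletion, and whether the response to Myc depletion differs between the populations.

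Total counts per library lay between 18953668 and 59799444. The defining transcripts of this line were present, with VIM at 1846 to 3105 CPM (read counts scaled to a common library total by the TMM method over the 16 libraries) and CD44 at 566 to 1395 CPM, while ESR1 did not exceed 0.298 CPM and PGR 0.0819 CPM. Of the other transcripts listed as low in this line, CDH1 did not exceed 9.40 CPM, but ERBB2 lay at 74.3 to 107 CPM and EPCAM at 11.9 to 32.0 CPM. Of other cell types, the leukocyte marker PTPRC did not exceed 1.44 CPM, the T cell marker CD3E 0.0284 CPM and the fibroblast collagen COL3A1 0.398 CPM. TXNIP lay at 276 to 469.6 CPM in the parental 231 libraries and at 6.70 to 10.1 CPM in the siRNA-treated 231:TKO libraries, but at 12.7 and 46.5 CPM in the untreated 231:TKO replicates. With siMyc, MYC was lower by 1.21 ± 0.06 (log2 fold change ± SE) in 231:TKO and by 0.96 ± 0.09 in parental 231. Before any comparison, 2 parental libraries stood apart from the rest: siNT replicate 1 and siMyc replicate 3 lay together on a first principal component that held 58.9% of the variance among the 6 siRNA-treated parental libraries, and their deviations from their group means correlated at 0.91 over 13448 genes. In this pair OAZ1 was 1.34 times the mean of the other replicates in both groups, and SAT1 1.40 and 1.21 times, so results in siRNA-treated parental 231 are also given with a factor for the pair. The labels do not say that replicates were separate cultures, and p-values then measure the spread between these libraries.

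Levels of different genes were compared per kilobase of annotated exons. The highest were those of SMS, spermine synthase, with condition means of 108 to 191 CPM per kilobase, and of OAZ1, the major antizyme, with 98.9 to 178 CPM per kilobase. SRM, spermidine synthase, had condition means of 28.6 to 86.3 CPM per kilobase, ODC1 of 20.2 to 70.7, AZIN1, the antizyme inhibitor, of 29.6 to 70.2 and SAT1, the acetyltransferase, of 6.16 to 69.1. AMD1, with 8.08 to 19.6 CPM per kilobase, and OAZ2, the second antizyme, with 7.98 to 12.6, were lower, and PAOX, the oxidase that takes acetylated polyamines back to spermidine and putrescine, was lowest of the 9 detected genes at 0.445 to 2.08 CPM per kilobase. These lengths add up the exons of all annotated transcripts, 10193 bases for AMD1 and 1894 bases for SRM, so that unused exons lower a value. Among 11 annotated pseudogenes named after these genes, 10 had at most 2 counts in every library, and AMD1P3 had at most 13, against 3761 or more for AMD1.

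**Figure D1:**
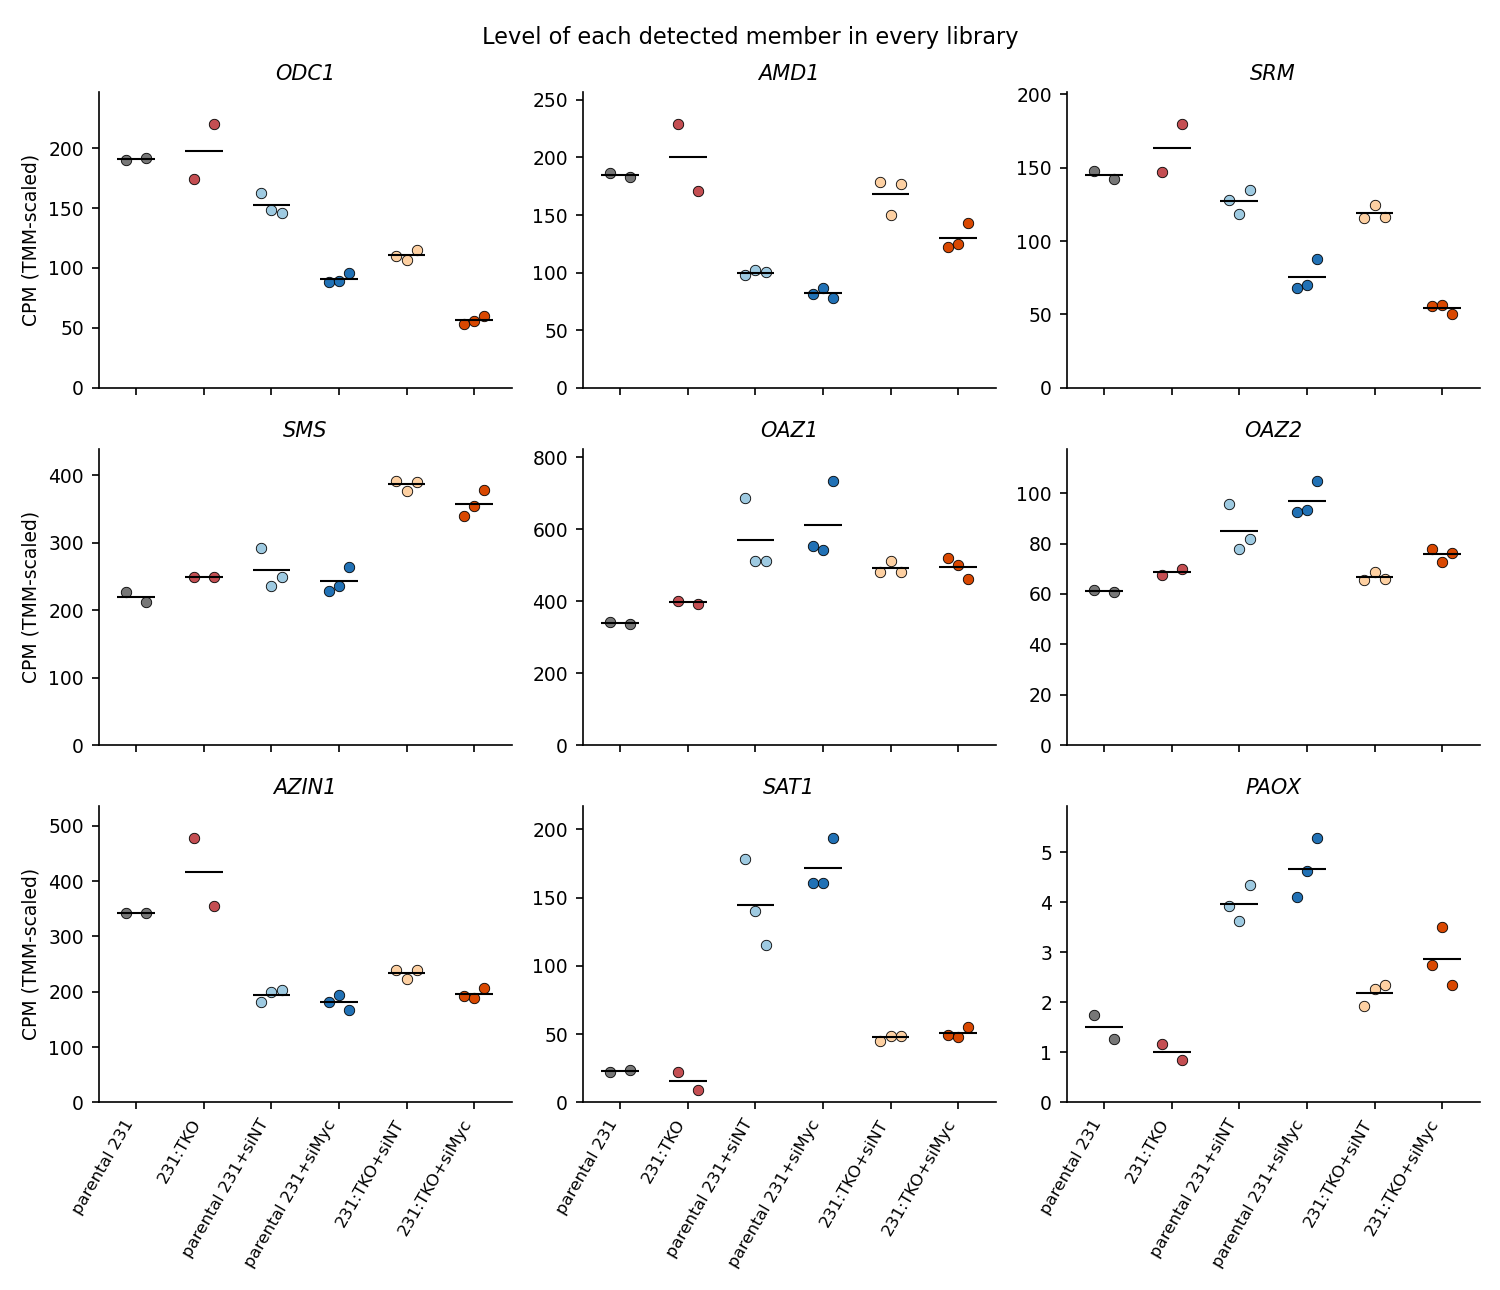
Level of each of the 9 detected genes in CPM (vertical axes from 0, each with its own scale) in the 6 conditions, with 1 point per library and a line at the condition mean. The siMyc points of ODC1 and SRM lie below all siNT points of the same population, and SAT1 separates the siRNA-treated parental 231 libraries (115 to 194 CPM) from the siRNA-treated 231:TKO libraries (45.0 to 55.2 CPM).

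MTAP (ENSG00000099810, GRCh38 chr9:21802636-21937651) encodes methylthioadenosine phosphorylase, which salvages the by-product of spermidine and spermine synthesis, and it lies beside the tumor suppressor gene CDKN2A, with which it is often lost in tumors. It had 0 counts in all 16 libraries. For a single library, 3 counts would correspond to 0.0502 to 0.158 CPM, and over the 617671120 counts of all libraries to 0.00486 CPM, limits that cover counting error only. The silence was not limited to MTAP: of 10 genes listed around it, 8 had 0 counts in every library as well (HACD4, KLHL9, MIR31HG, IFNE, CDKN2A-DT, CDKN2A, CDKN2B and DMRTA1). CDKN2B-AS1 had 5 counts in all, with none in 13 libraries, and FOCAD, the outermost on the side of the chromosome end, had at least 46 counts in each library. Having no counts, MTAP entered no test, so the counts of genes past the threshold below are out of 9.

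With Myc depleted in 231:TKO, ODC1 and SRM fell most among the 9 genes. In bulk RNA, fewer expressing cells and less RNA per cell cannot be told apart. ODC1 lay at 110.0, 107 and 115 CPM in the 3 siNT libraries and at 53.1, 55.8 and 59.9 CPM in the 3 siMyc libraries. SRM lay at 116, 124 and 117 CPM with siNT and at 56.0, 56.1 and 50.4 CPM with siMyc. The groups did not overlap for either gene. ODC1 fell 1.96-fold (log2 fold change -0.97 ± 0.06 SE, adjusted p = 1.27e-10) and SRM 2.19-fold (-1.13 ± 0.06, adjusted p = 2.33e-11). AMD1, which supplies the aminopropyl donor, went from 178, 150.4 and 177 CPM to 123, 125 and 143 CPM without overlap and fell 1.29-fold (-0.37 ± 0.07, adjusted p = 0.000197). SMS, which adds the last aminopropyl group, did not pass the threshold at -0.11 ± 0.05 (adjusted p = 0.111), with 377 to 391 CPM with siNT and 339 to 379 with siMyc.

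Of the genes that control ornithine decarboxylase in 231:TKO, AZIN1, which protects it, fell by 0.25 ± 0.05 on the log2 scale (adjusted p = 0.00067, from 223 to 239.7 CPM with siNT to 189 to 207 with siMyc), and OAZ2, which promotes its degradation, rose by 0.18 ± 0.05 (adjusted p = 0.0126, from 65.5 to 68.8 CPM to 72.8 to 78.0). OAZ1 did not pass the threshold, with a log2 fold change of 0.01 ± 0.05, nor did the breakdown genes SAT1 (0.10 ± 0.06) and PAOX (0.40 ± 0.16, adjusted p = 0.0758). In all, 5 of the 9 genes passed, against 27.2% of the 22450 genes tested, with 4 lower (13.9% of all genes) and 1 higher (13.3%). The groups did not overlap for 6 of the 9, those 5 and PAOX, nor for 38.7% of all genes. The median log2 fold change was -0.11 over the 9 genes and 0.01 over all genes tested. When the 12 siRNA libraries were fitted together, 3 passed, and the share of all genes in that fit is not given.

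ODC1 and SRM also had the largest changes of the 9 genes in parental 231. With siNT, ODC1 lay at 162, 149 and 146 CPM, and with siMyc at 88.4, 89.2 and 95.5 CPM. SRM lay at 128, 118 and 135 CPM with siNT and at 68.1, 70.3 and 87.9 CPM with siMyc, and the highest siMyc library was 1 of the pair that stood apart. The groups overlapped for neither gene, nor for AMD1 (97.8 to 102.1 CPM with siNT and 78.1 to 87.0 with siMyc, log2 fold change -0.30 ± 0.09, adjusted p = 0.159), 3 of 9 genes against 21.2% of all genes. ODC1 fell 1.70-fold (log2 fold change -0.77 ± 0.09, adjusted p = 0.0378) and SRM 1.71-fold (-0.77 ± 0.12, adjusted p = 0.0491), and these 2 were the genes past the threshold, where 0.594% of the 23728 genes tested passed and 0.354% were lower. Both sat close to the threshold. Without siNT replicate 1, 1 of the 9 genes passed. Without any of siNT replicate 2, siNT replicate 3, siMyc replicate 1 or siMyc replicate 2, none did. The share of all genes in these fits is not given. The other genes had log2 fold changes of -0.12 ± 0.12 for SMS, -0.13 ± 0.10 for AZIN1, 0.08 ± 0.17 for OAZ1, 0.17 ± 0.11 for OAZ2, 0.22 ± 0.17 for SAT1 and 0.21 ± 0.14 for PAOX, and did not pass.

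A factor for the pair of libraries that stood apart, chosen once the data were known, raised the number of genes that passed. It was then 7 of the 9, against 26.8% of all genes, with 5 lower (13.1% of all genes) and 2 higher (13.7%). ODC1 (-0.76 ± 0.04), SRM (-0.78 ± 0.08), AMD1 (-0.31 ± 0.04), AZIN1 (-0.13 ± 0.04) and SMS (-0.11 ± 0.04) were lower, and SAT1 (0.23 ± 0.07) and OAZ2 (0.17 ± 0.04) were higher. The log2 fold changes themselves moved by little. With the pair left out, SRM was lower by 0.90 ± 0.06 and ODC1 by 0.76 ± 0.05.

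**Figure D2:**
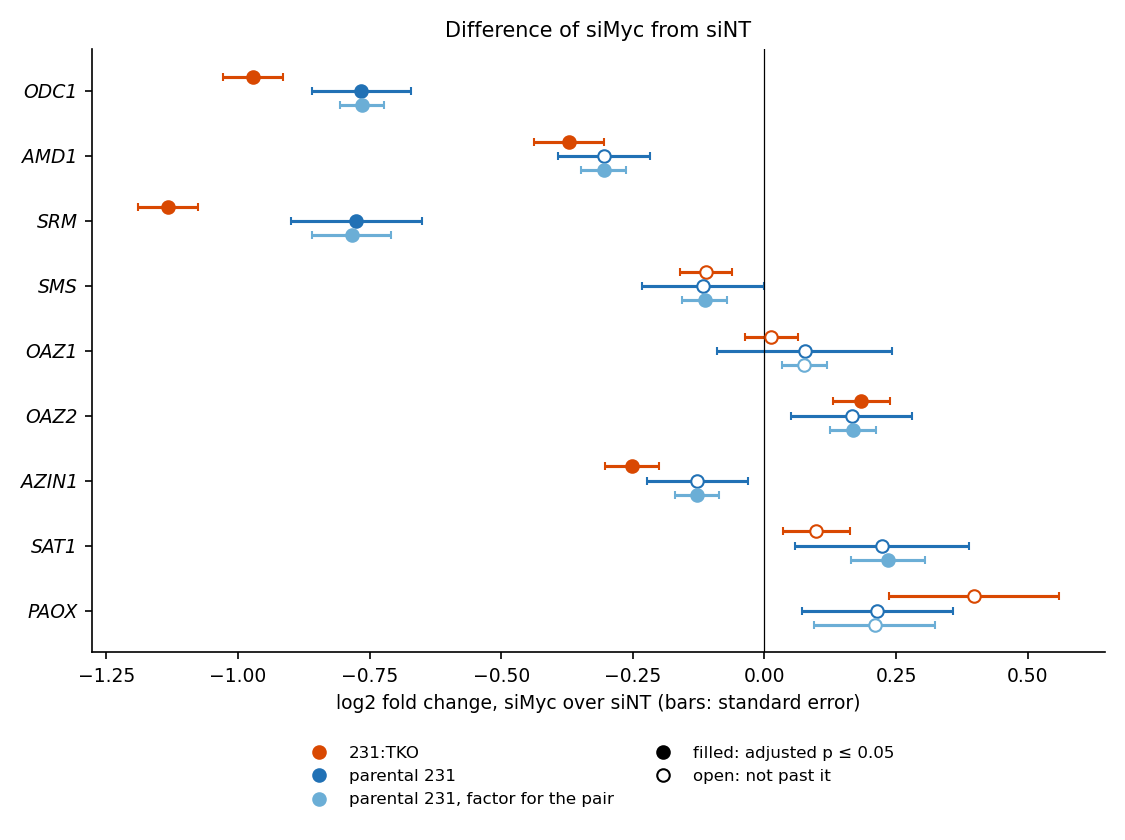
Log2 fold change of siMyc over siNT (horizontal axis, bars are standard errors) for the 9 detected genes in 231:TKO, in parental 231 and in parental 231 with a factor for the pair of libraries. ODC1 and SRM lie furthest to the left in every set, between -1.13 and -0.76, and filled points mark an adjusted p of at most 0.05.

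Ratios within a library do not depend on how libraries are scaled. In 231:TKO there were 22.8, 20.9 and 23.9 ODC1 counts per 100 OAZ1 counts with siNT and 10.2, 11.2 and 12.95 with siMyc. In parental 231 the ratios were 23.6, 29.1 and 28.5 with siNT and 15.97, 16.4 and 13.02 with siMyc. ODC1 counts thus fell against OAZ1 counts in both populations, without overlap of the groups. These are RNA counts, and the proteins were not analysed. For the synthases, SRM counts per 100 SMS counts went from 29.6, 33.0 and 29.9 to 16.5, 15.9 and 13.3 in 231:TKO and from 44.0, 50.2 and 54.0 to 29.9, 29.8 and 33.3 in parental 231. AMD1 counts per 100 SMS counts fell without overlap in 231:TKO, from 45.6, 39.9 and 45.3 to 36.2, 35.2 and 37.8, but the groups overlapped in parental 231, with 33.5, 43.3 and 40.3 against 36.0, 36.9 and 29.6.

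Whether Myc depletion acted more strongly in 231:TKO was tested as a difference of the responses. None of the 9 genes passed, and neither did any of 25812 genes (0.00%) with edgeR's quasi-likelihood test. At an unadjusted p under 0.05 there were 1039 genes (4.03%), SRM among them, and DESeq2 called 6 genes, none of these 9. The difference (231:TKO minus parental 231) was -0.33 ± 0.14 for SRM and -0.18 ± 0.12 for ODC1 on the log2 scale. It lay between -0.10 and 0.05 for SMS, AMD1, SAT1, OAZ1, OAZ2 and AZIN1, and was 0.21 ± 0.23 for PAOX. With the factor for the pair, SRM was the 1 gene of the 9 that passed (-0.32 ± 0.08, adjusted p = 0.0451), among 0.570% of all genes. With the pair left out, the difference for SRM was -0.26 ± 0.09 (adjusted p = 0.274). The fall of MYC itself was larger in 231:TKO, as given above. The siRNA-treated populations also differed in annotation release and series of alignment files, and these differences cannot be told apart here.

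Myc binds DNA as a dimer with Max at the E-box CACGTG, which reads the same on both strands. Promoter windows of 300 bases, 250 before and 50 after a start site, were taken from RefSeq (GRCh38.p14). They were given for 8 of the 10 genes, and CACGTG was found in windows of 2, ODC1 and SRM, compared with 8.77% of 27305 genes (7.26% of 35116 windows). SMS, AMD1, SAT1, OAZ1, OAZ2 and MTAP had no CACGTG in their windows, and AZIN1 and PAOX were not searched. Of 40 other genes of the pathway with a window, listed further below, 7 had CACGTG. With siMyc in 231:TKO, ALDH18A1, DOHH and ENOPH1 of these were lower past the threshold, and EIF5A2, ASS1, ADI1 and MRI1 were not. Genes that were lower there and had no CACGTG included AHCY, AGMAT, EIF5A, SLC7A1, ATP13A3, MAT2A and GOT1. A link between the motif and the response was not tested. The windows of ODC1 and SRM, past the threshold with siMyc in both populations, are shown up to base 20 after the start site. They run 5′ to 3′ on the strand of the gene, with CACGTG in capitals. AMD1 was also lower with siMyc without overlap in 231:TKO (-0.37) and in parental 231 (-0.30), and its windows, without CACGTG, are not shown.

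ODC1, start site inside the gene, minus strand, chr2:10447993-10448262: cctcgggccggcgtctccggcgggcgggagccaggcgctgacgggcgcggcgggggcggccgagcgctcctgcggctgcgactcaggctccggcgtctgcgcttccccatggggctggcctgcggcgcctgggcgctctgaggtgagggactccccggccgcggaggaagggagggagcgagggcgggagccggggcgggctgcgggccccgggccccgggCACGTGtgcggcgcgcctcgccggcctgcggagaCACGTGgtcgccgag

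ODC1, annotated start of the gene, minus strand, chr2:10448308-10448577: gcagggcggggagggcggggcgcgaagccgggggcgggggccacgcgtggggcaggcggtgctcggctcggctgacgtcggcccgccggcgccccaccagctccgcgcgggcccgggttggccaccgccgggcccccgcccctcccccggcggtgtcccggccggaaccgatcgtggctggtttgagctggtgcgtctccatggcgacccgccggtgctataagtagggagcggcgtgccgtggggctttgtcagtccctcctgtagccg

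SRM, minus strand, chr1:11059999-11060268: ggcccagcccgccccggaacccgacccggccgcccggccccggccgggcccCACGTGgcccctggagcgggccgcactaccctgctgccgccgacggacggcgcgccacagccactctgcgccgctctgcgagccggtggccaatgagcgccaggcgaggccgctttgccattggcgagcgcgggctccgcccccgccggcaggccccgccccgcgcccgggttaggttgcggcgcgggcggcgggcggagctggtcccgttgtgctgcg

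ODC1 (ENSG00000115758, chr2:10439968-10448327) had 2 start sites in the table. The window at the annotated start held no CACGTG, and the window at the start site 315 bases further in held 2, beginning 29 bases before and 6 bases after that site. By the exons listed in the count tables both copies lay in an intron (chr2:10448036-10448041 and chr2:10448002-10448007). SRM (ENSG00000116649, chr1:11054584-11060020) held 1, beginning 199 bases before its start site and outside the gene (chr1:11060212-11060217). A match describes the letters and not binding, which was not analysed here.

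Over the 12 siRNA libraries, the genes whose levels followed ODC1 most closely included CHAC2, IMPDH2, AHCY and AGMAT. Likeness was the root mean square difference of log2(CPM + 1) after centering each gene, and it was 0.117 to 0.129 for these 4, against a median of 0.57 over 13530 genes. AHCY clears the S-adenosylhomocysteine left by methylation reactions, and AGMAT is named for agmatinase, an enzyme that makes putrescine from agmatine. AGMAT had siRNA condition means of 1.36 to 5.33 CPM, where the added 1 shrinks differences. Its fitted log2 fold changes with siMyc were -1.39 in 231:TKO and -0.94 in parental 231, against -0.97 and -0.77 for ODC1. For SRM the closest were CCDC86, NLE1, FAM136A, ENTR1 and C1QBP (0.0930 to 0.141). ODC1 and SRM were 0.192 apart.

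TXNIP loss was next compared at the same siRNA. The siRNA-treated parental 231 libraries were counted on a later annotation release of Ensembl and came from another series of alignment files than the 231:TKO libraries, so the population and these differences cannot be told apart. The annotated lengths of AZIN1 (5931 and 6130 bases) and SAT1 (2498 and 2482 bases) changed between the releases, and those of the other 8 genes did not. Both comparisons use the same cells with other siRNAs and are given side by side.

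AMD1 and SMS were higher in 231:TKO than in parental 231. AMD1 lay at 178, 150.4 and 177 CPM in 231:TKO+siNT and at 97.8, 102.1 and 100.5 CPM in parental 231+siNT, without overlap, and was higher by 0.72 ± 0.09 with siNT (adjusted p = 0.000117) and by 0.67 ± 0.10 with siMyc (adjusted p = 0.000118). SMS lay at 391, 377 and 390.0 CPM against 292, 236 and 249.6 CPM with siNT and was higher by 0.55 ± 0.10 (adjusted p = 0.00105), and by 0.56 ± 0.09 with siMyc (adjusted p = 0.000365). The genes within 5 Mb of AMD1 were also higher, with a median log2 fold change of 0.44 with siNT over 42 genes and 0.52 with siMyc over 41, and those around SMS with 0.25 and 0.28 over 26. AMD1 exceeded its neighbors by 0.29 and 0.15 and SMS by 0.30 and 0.28.

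ODC1, OAZ2 and, of the genes of breakdown, SAT1 and PAOX were lower with both siRNAs. SAT1 lay at 45.0, 48.9 and 48.6 CPM in 231:TKO+siNT and at 178, 140.2 and 115 CPM in parental 231+siNT, a 3.11-fold lower level (-1.63 ± 0.14, adjusted p = 6.28e-06), and with siMyc it was 3.36-fold lower (-1.75 ± 0.11, adjusted p = 4.93e-08). It was the largest difference among the 9 genes, its neighbors moved the other way (0.36 and 0.30, over 22 genes), and the groups did not overlap with either siRNA. PAOX was lower by 0.89 ± 0.15 and 0.70 ± 0.16, ODC1 by 0.49 ± 0.09 and 0.69 ± 0.09, and OAZ2 by 0.38 ± 0.10 and 0.35 ± 0.09, all past the threshold with both siRNAs. The 14 neighbors of PAOX were also lower, with medians of -0.37 and -0.32, and PAOX lay below them by 0.52 and 0.37. The neighbors of ODC1 (0.13 and 0.17) and OAZ2 (0.03 and 0.02) were not lower. SRM was lower with siMyc (-0.47 ± 0.11, adjusted p = 0.00455) and did not pass with siNT (-0.12 ± 0.09), and the test of that contrast is the difference of responses given above, which it did not pass. OAZ1 (-0.24 ± 0.12 and -0.30 ± 0.12) and AZIN1 (0.24 ± 0.09 and 0.12 ± 0.09) did not pass with either.

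With siNT, 6 of the 9 genes passed, against 36.8% of the 23310 genes tested, with 2 higher (16.1% of all genes) and 4 lower (20.7%). With siMyc it was 7, against 40.6% of 23561, with 2 higher (18.8%) and 5 lower (21.7%). The groups did not overlap for 8 of the 9 genes with either siRNA, nor for 51.3% of all genes with siNT and 53.7% with siMyc. The directions of the genes that passed were the same when gene length was added as an offset.

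In untreated cells none of the 9 genes passed in 231:TKO against parental 231, where 9.61% of 19965 genes did, and OAZ1 was the 1 gene at an unadjusted p under 0.05 (25.9% of all genes). ODC1 lay at 189.6 and 192 CPM in parental 231 and at 174 and 220.3 CPM in 231:TKO, so that the 231:TKO replicates enclosed the parental ones (log2 fold change -0.02 ± 0.12). AMD1, at 187 and 183 CPM against 229 and 171, was enclosed in the same way (0.04 ± 0.14). SAT1 lay at 21.9 and 23.7 CPM in parental 231 and at 21.9 and 8.91 CPM in 231:TKO, so that 1 replicate was level with parental 231 and the other was not (-0.64 ± 0.43). OAZ1 (0.15 ± 0.06), OAZ2 (0.10 ± 0.07), SMS (0.11 ± 0.06), AZIN1 (0.21 ± 0.15) and PAOX (-0.65 ± 0.33) did not overlap between the groups, 5 of 9 against 58.7% of all genes, and SRM had 0.10 ± 0.11.

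**Figure D3:**
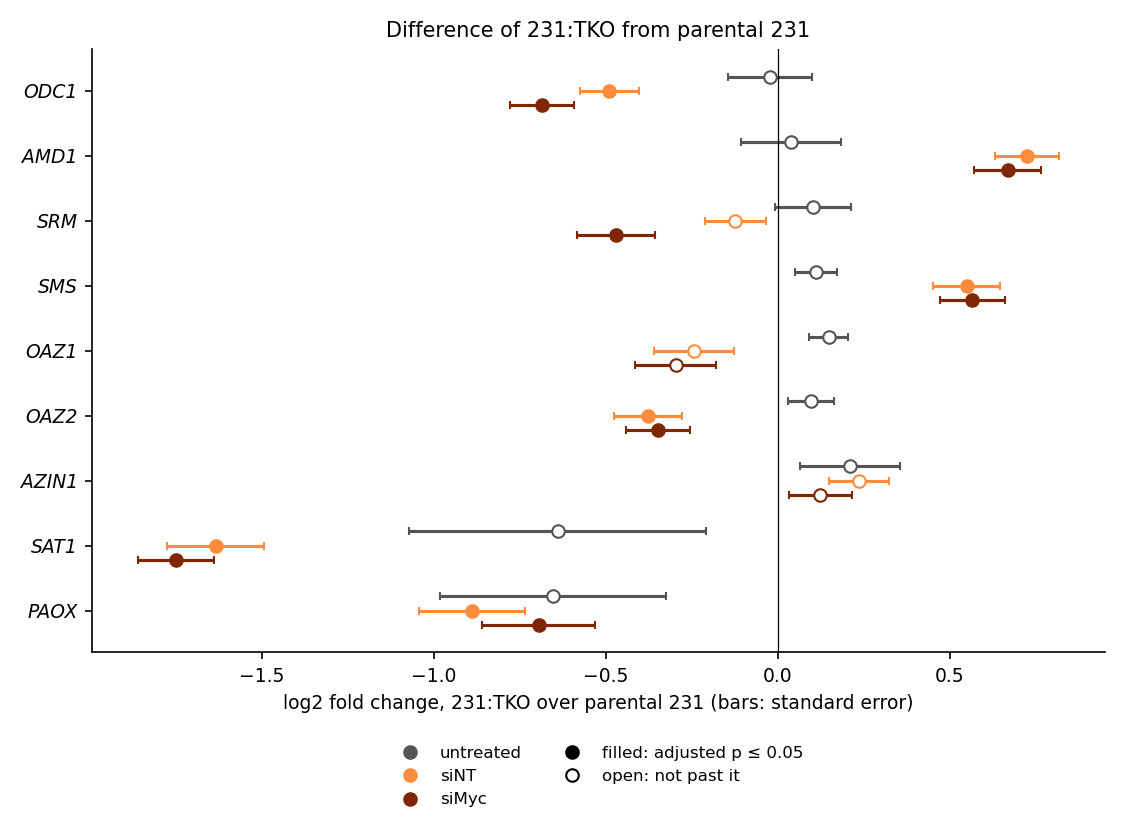
Log2 fold change of 231:TKO over parental 231 (horizontal axis, bars are standard errors) for the 9 detected genes in untreated, siNT-treated and siMyc-treated cells. All untreated points are open (not past an adjusted p of 0.05), while AMD1 and SMS lie to the right and SAT1, PAOX, ODC1 and OAZ2 to the left as filled points with both siRNAs.

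The 231:TKO replicates themselves lay apart: leaving out replicate 1 gave 5 of the 9 genes past the threshold, against 37.4% of 18714 genes, and leaving out replicate 2 gave 4, against 36.0% of 18859. The genes around several of these loci moved with them. Relative to the mean of parental 231 and on the log2(CPM + 1) scale, ODC1 was at -0.13 in replicate 1 and 0.21 in replicate 2, and the median of its 27 neighbors within 5 Mb was at -0.43 and 0.16. AMD1 was at 0.31 and -0.11, and its 41 neighbors at 0.22 and -0.34. AZIN1 was at 0.48 and 0.05, and its 31 neighbors at 0.59 and 0.20. The drop of SAT1 in replicate 2, -1.26, had no such counterpart, since its 21 neighbors lay at 0.23 there. The part of these regional shifts in the replicates' differences was not tested.

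**Figure D4:**
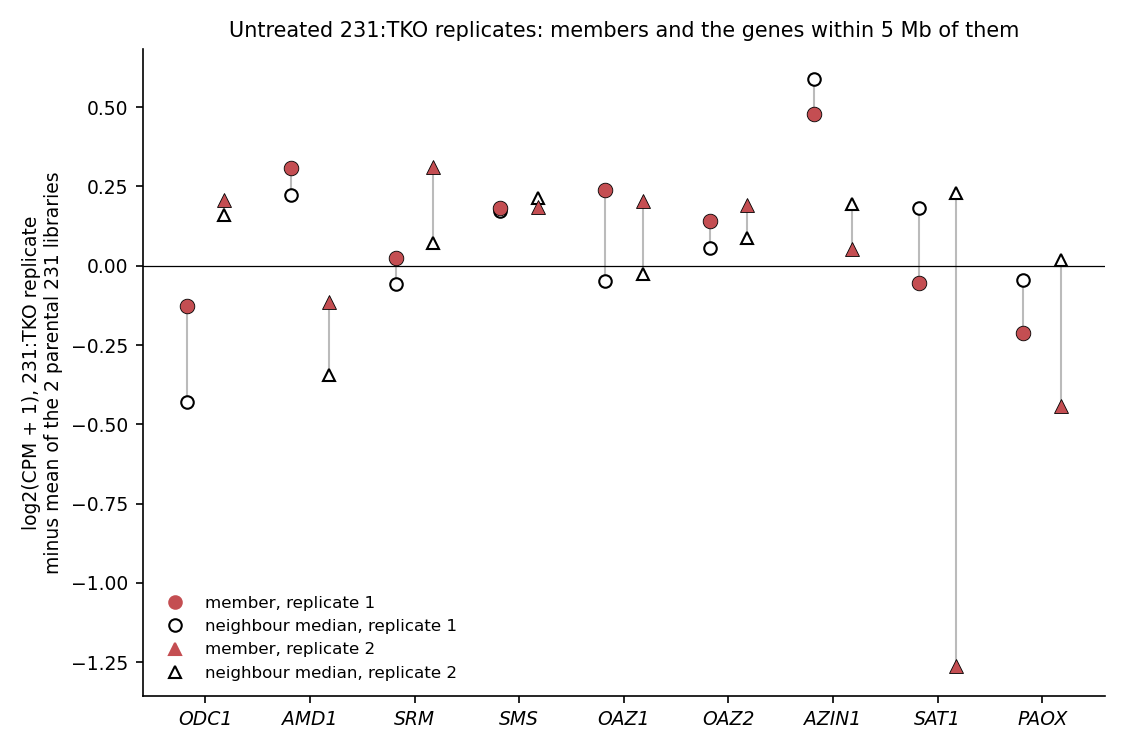
Level of the 9 detected genes in each untreated 231:TKO replicate (red) and median of the genes that start within 5 Mb (white), as the difference in log2(CPM + 1) from the mean of the 2 parental 231 libraries (vertical axis). ODC1, AMD1 and AZIN1 shift between the replicates in the direction of their neighbors, and SAT1 in replicate 2 lies at -1.26 with neighbors at 0.23.

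The difference between 231:TKO and parental 231 in untreated cells was tested against that in siNT-treated cells in 1 fit of 10 libraries, a comparison added once the data were known. AMD1 (untreated minus siNT -0.68 ± 0.17, adjusted p = 0.0139) and OAZ2 (0.48 ± 0.15, adjusted p = 0.0497) passed, 2 of 9 genes against 14.1% of 25112. ODC1 (0.47 ± 0.16, adjusted p = 0.0594), SMS (-0.43 ± 0.15, adjusted p = 0.0725) and SAT1 (1.00 ± 0.47, adjusted p = 0.233) did not, nor did OAZ1 (0.40 ± 0.18), SRM (0.23 ± 0.15), PAOX (0.24 ± 0.35) and AZIN1 (-0.02 ± 0.16). For SAT1 the difference was 0.21 without 231:TKO replicate 1 and 1.499, past the threshold, without replicate 2. The untreated populations shared the annotation release and the series of alignment files, whereas the siNT-treated populations differed in both. That difference enters this comparison and cannot be told apart from siRNA treatment. Untreated and siRNA-treated libraries also differed in sequencing, as single reads and read pairs, and siRNA treatment and sequencing cannot be told apart. The same holds for levels: SAT1 was at 8.91 to 23.7 CPM in the untreated libraries and at 45.0 to 194 CPM in the siRNA-treated ones, and AZIN1 at 342 to 478 and 168 to 239.7 CPM.

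Another 50 genes that supply, use or move polyamines were listed in 6 groups. With siMyc in 231:TKO, 7 of the 42 tested rose and 15 fell, with a median log2 fold change of -0.12, against 13.3% of all genes higher, 13.9% lower and a median of 0.01. In this comparison the same shares stand behind the counts of each group below. EIF5A, the translation factor that carries hypusine, an amino acid built from spermidine, fell by 0.61 ± 0.05 (adjusted p = 4.1e-09), and DOHH, the second enzyme of hypusine formation, fell by 0.29 ± 0.07. DHPS, the first enzyme, had -0.11 ± 0.07 and EIF5A2 0.01 ± 0.08, and neither passed.

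In the methionine cycle, which regenerates the methionine for S-adenosylmethionine, 3 genes fell and 1 rose of 8 in 231:TKO with siMyc, among them AHCY (-0.85 ± 0.05), MTRR (-0.74 ± 0.06) and MAT2A (-0.27 ± 0.05), the last of which makes S-adenosylmethionine. Of 9 tested genes of ornithine and arginine supply 4 fell and 2 rose, led by AGMAT (-1.39 ± 0.18), PYCR3 (-0.33 ± 0.08) and ALDH18A1 (-0.30 ± 0.05). Transport counted 4 lower and 1 higher of 10, led by the cationic amino acid carriers SLC7A2 (-1.24 ± 0.07) and SLC7A1 (-0.49 ± 0.05) and by the polyamine transporter ATP13A3 (-0.47 ± 0.06). Methionine salvage, the pathway that MTAP opens, counted 2 lower (ENOPH1, -0.27 ± 0.06, and GOT1, -0.23 ± 0.05) and 1 higher (IL4I1, 0.56 ± 0.17) of 7. Interconversion and breakdown counted 2 higher of 4, AZIN2 (0.39 ± 0.09), a second antizyme inhibitor, and SAT2 (0.26 ± 0.06), while SMOX, spermine oxidase, had -0.18 ± 0.09 and did not pass.

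In parental 231, 2 of 44 passed with siMyc, against 0.594% of all genes, AHCY (-0.61 ± 0.10, adjusted p = 0.0474) and AGMAT (-0.94 ± 0.13, adjusted p = 0.0378), and with the factor for the pair 21 were lower and 6 higher, against 13.1% and 13.7% of all genes. EIF5A had -0.39 ± 0.14, DOHH -0.22 ± 0.14, DHPS -0.23 ± 0.11, EIF5A2 0.10 ± 0.09 and SMOX -0.15 ± 0.10 there. None of 44 passed the test of the difference of responses.

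**Figure D5:**
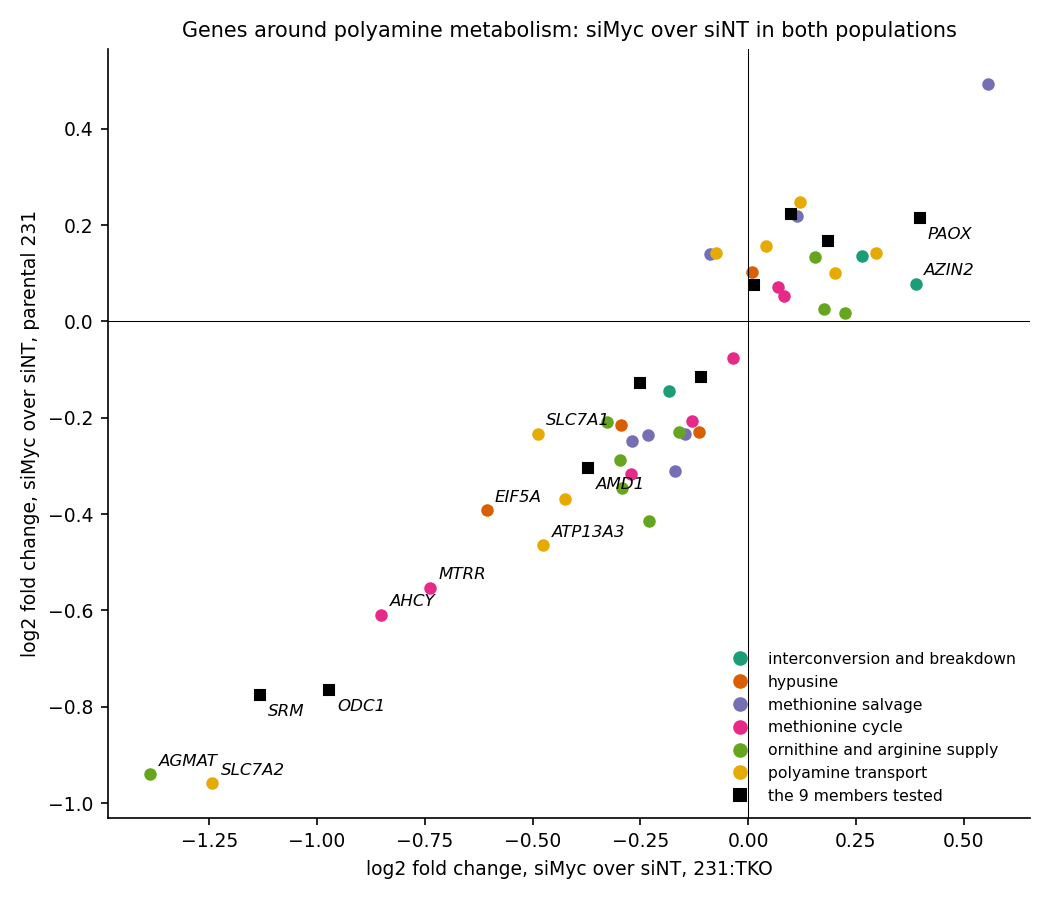
Log2 fold change of siMyc over siNT in 231:TKO (horizontal axis) and parental 231 (vertical axis) for the 9 detected genes (squares) and for 39 of the 50 listed genes with a mean of at least 1 CPM in a condition (circles, colored by group). AGMAT, SLC7A2, SRM, ODC1, AHCY and MTRR lie at the lower left in both.

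Between the populations, 12 listed genes were higher and 12 lower of 43 with siNT, against 16.1% and 20.7% of all genes. With siMyc 13 were higher and 12 lower of 44, against 18.8% and 21.7%. Among transporters, SLC18B1, a vesicular polyamine transporter, was higher by 1.27 ± 0.10 with siNT and 1.23 ± 0.10 with siMyc, SLC7A2 by 1.09 ± 0.16 and 0.82 ± 0.13 and SLC7A1 by 0.92 ± 0.18 and 0.67 ± 0.14, while ATP13A2, the lysosomal polyamine exporter, was lower by 0.73 ± 0.11 and 0.84 ± 0.10. In the supply of ornithine and arginine, AGMAT was lower by 0.60 ± 0.15 and 1.04 ± 0.18, PYCR1 by 0.61 ± 0.13 and 0.55 ± 0.10 and PYCR3 by 0.57 ± 0.12 and 0.68 ± 0.11.

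MTR, methionine synthase, was higher by 0.70 ± 0.16 and 0.79 ± 0.13. Its annotated exons add up to 12357 bases in the earlier release and 19254 bases in the later one, and with gene length as an offset the values were 1.34 and 1.43. SLC3A2 was the other of the 50 listed genes whose length changed. AHCYL1 was higher by 0.42 ± 0.09 and 0.48 ± 0.09, AHCY was lower by 0.33 ± 0.08 and 0.56 ± 0.09, and MTRR was higher by 0.41 ± 0.10 with siNT and did not pass with siMyc (0.23 ± 0.09). In methionine salvage, GOT1 was higher by 0.39 ± 0.09 and 0.41 ± 0.09 and ADI1 lower by 0.29 ± 0.10 and 0.39 ± 0.10. APIP (-0.38 ± 0.13, adjusted p = 0.0412) and MRI1 (-0.34 ± 0.10, adjusted p = 0.0186) were lower with siNT and KYAT1 (-0.45 ± 0.17, adjusted p = 0.0462) with siMyc. Of 13 alternative settings, APIP passed under 7, MRI1 under 9 and KYAT1 under 2. AZIN2 was lower by 0.72 ± 0.11 and 0.40 ± 0.11, and SMOX did not pass (-0.19 ± 0.12 and -0.22 ± 0.10). DHPS was lower by 0.94 ± 0.10 and 0.81 ± 0.10, and EIF5A, with -0.26 ± 0.10 and -0.47 ± 0.11, passed with siMyc. DOHH (-0.04 ± 0.10 and -0.11 ± 0.12) and EIF5A2 (-0.0030 ± 0.09 and -0.09 ± 0.10) did not pass.

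In untreated cells 2 were higher and 4 lower of 41, against 5.43% and 4.18% of all genes. MTR (0.59 ± 0.08, adjusted p = 0.0172) and ENOPH1 (0.37 ± 0.08, adjusted p = 0.0494) were higher. ASS1 (-1.45 ± 0.27), which feeds arginine synthesis, ATP13A2 (-1.04 ± 0.15), SAT2 (-0.54 ± 0.10) and EIF5A (-0.36 ± 0.06) were lower, with adjusted p of 0.0243 to 0.0363. None of these genes passed under every alternative setting. DHPS had 0.21 ± 0.16 in untreated cells and did not pass. The untreated difference was set against that with siNT as above, with the same limits. Of 44 listed genes 4 were higher and 6 lower, against 7.91% and 6.20% of all genes. Higher were DHPS (1.15 ± 0.18, adjusted p = 0.000534), PYCR1 (0.73 ± 0.21), AZIN2 (0.63 ± 0.20) and ADI1 (0.59 ± 0.19). Lower were ASS1 (-1.81 ± 0.25, adjusted p = 0.000211), SLC18B1 (-1.01 ± 0.20), SLC7A2 (-0.89 ± 0.24), SLC7A1 (-0.79 ± 0.24), SAT2 (-0.70 ± 0.19) and AHCYL1 (-0.51 ± 0.14). AZIN2 (adjusted p = 0.0492), ADI1 (0.0463) and SLC7A1 (0.0478) sat close to the threshold. Of 15 alternative settings, DHPS, ASS1 and SLC18B1 passed under all, SAT2 and SLC7A2 under 11 and AHCYL1 under 10. PYCR1 passed under 8, SLC7A1 under 7, and AZIN2 and ADI1 under 5 each.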

How the data were processed

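RNA was measured in 16 libraries made with a stranded mRNA kit, and reads were aligned to GRCh38 by STAR. The authors deposited raw counts per gene, without normalization, made with featureCounts 1.6.3 on the reverse strand by largest overlap. Per the file headers, single reads were counted in untreated cells and read pairs after siRNA treatment, and a later Ensembl release was used for siRNA-treated parental 231 than elsewhere. Symbols matched 58705 of 60719 identifiers (96.7%).

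Libraries were grouped by their labels. A gene was tested where the libraries compared held more than 5 counts of it in sum, by the quasi-likelihood test of edgeR 4.0.16 in R 4.3.3 (TMM scaling, robust dispersions, no covariate), each comparison on its own groups, with Benjamini-Hochberg adjustment over all genes tested and a threshold of 0.05. The authors had used DESeq2. The standard error is the log2 fold change over the square root of F. Differences of responses were contrasts in 1 fit. Printed CPM values were scaled over all 16 libraries, so that ratios of them can differ from fitted fold changes. Total counts of 18953668 to 59799444 put 3 counts at 0.0502 to 0.158 CPM.

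Alternatives were DESeq2 1.42.0, its size factors, no filter, more than 5 counts in every library, a block for the replicate number, each library left out, stricter thresholds, 1 fit of the 12 siRNA libraries, 1 surrogate variable (sva 3.50.0), gene length offsets and subtraction of neighbors within 5 Mb. The factor for a pair of parental 231 libraries, leaving the pair out, and the comparison of untreated with siNT-treated differences were chosen once the data were known. The 9 detected genes are named in every comparison. Of each other list and comparison, at most the 3 that changed most among called genes averaging 1 CPM or more are named, with their values under the other siRNA, with all hypusine genes and SMOX for siMyc and between the siRNA-treated populations. The 5 genes most like ODC1 and SRM were ranked as described, and 1 of them is not reported here. The 7 listed genes with CACGTG are named for it. The genes and lists were chosen with earlier results of these data known.

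The fits were tested on simulated counts in which 200 genes were changed 2-fold. In untreated cells 64% of these were recovered, against 98.5% for siMyc in 231:TKO and 92% in parental 231. The simulated libraries varied independently, without a shared deviation such as that of the pair. The changed genes averaged 1 CPM or more, and both groups of a comparison were given the same spread. In the data, the untreated 231:TKO replicates lay further apart than those of parental 231. These shares therefore apply to the simulated counts only. Protein, metabolite and binding measurements, and the marker PECAM1, were not analysed here.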

Additional observations from a re-analysis of the deposited data

Results flagged for a closer look

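The difference between 231:TKO and parental 231 in AMD1 was not the same in untreated and in siNT-treated cells, by -0.68 ± 0.17 on the log2 scale (untreated minus siNT, adjusted p = 0.0139, range over alternatives 0.000881 to 0.0725). OAZ2 also passed, close to the threshold, with 0.48 ± 0.15 (adjusted p = 0.0497, range 0.00370 to 0.185). Of 15 alternatives, AMD1 passed under 12 and OAZ2 under 4. Both antizyme genes pointed in opposite directions: OAZ1 had 0.15 in untreated cells and -0.24 with siNT, and OAZ2 0.10 and -0.38, and in each case the libraries of the groups did not overlap. Without siNT replicate 1 of parental 231, OAZ1 had -0.072 with siNT. For OAZ1 the test of the difference gave 0.40 ± 0.18 (adjusted p = 0.164). Groups of 2 and 3 libraries were not tested for single outlying libraries. With siNT, but not in untreated cells, the populations differed in annotation release and series of alignment files. This cannot be told apart from the siRNA treatment.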

How the results depend on the processing

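In 231:TKO, ODC1, SRM and AMD1 were lower with siMyc and past the threshold under all 13 alternatives with a test, and so were the differences of SAT1, AMD1, SMS, ODC1 and PAOX between the siRNA-treated populations, in their own directions, under 13 each.

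Counts of the 9 genes past the threshold moved as follows. The share of all genes moved with the setting too, from 0.594% to 26.8% for siMyc in parental 231 with the factor for the pair. It is not given for most other settings, so these counts alone do not set the 9 genes apart. For siMyc in 231:TKO, 5 became 3 in 1 fit of the 12 siRNA libraries and 2 at a log2 fold change of at least 0.5. For siMyc in parental 231, 2 became 1 with DESeq2's size factors, 6 with 1 surrogate variable, 7 with the factor for the pair, 5 without the pair and 0 at an adjusted p of at most 0.01. The difference of responses went from 0 to 1 with the factor for the pair. The untreated minus siNT difference went from 2 to 4 with DESeq2, to 1 with its size factors, without a filter or at 0.5 log2, and to 0 at an adjusted p of at most 0.01. The causes were not tested. Leaving out single libraries gave 0 to 5 genes for untreated cells (5 and 4 without 231:TKO replicates 1 and 2, where the lone replicate is assumed to vary like the other group), 0 to 2 for siMyc in parental 231 and 0 to 5 for the untreated minus siNT difference.

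The replicate numbers did not pair the libraries: deviations of same-numbered libraries correlated at -0.17, 0.16 and 0.30 in 231:TKO, -0.83, 0.66 and -0.77 in parental 231 and 0.02 in untreated cells. With the replicate number as a block, 0 genes passed for siMyc in parental 231, 1 for the untreated minus siNT difference and 6 for siMyc in 231:TKO.

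Some values that did not pass changed sign. For the difference of responses, SMS was -0.0030 with DESeq2 and with its size factors, and without the pair SMS was -0.047 and OAZ2 -0.040. Leaving out single libraries gave ranges that cross 0. For untreated cells they were -0.21 to 0.13 for ODC1, -0.060 to 0.23 for SRM, -0.20 to 0.22 for AMD1 and -0.029 to 0.40 for AZIN1. For OAZ1 with siMyc they were -0.023 to 0.056 in 231:TKO and -0.092 to 0.23 in parental 231. For the difference of responses they were -0.11 to 0.10 for SMS, -0.12 to 0.010 for AMD1, -0.24 to 0.071 for OAZ1 and -0.10 to 0.11 for OAZ2. For the untreated minus siNT difference they were -0.25 to 0.17 for AZIN1 and -0.013 to 0.48 for PAOX.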
